A study of Mus musculus with 8 samples.

Results

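Sp7, Runx2, Ibsp, Spp1, Dmp1, Mepe, Phex, Ifitm5 and Bglap, which encode regulators of the osteoblast and proteins of mineralizing bone matrix, were described in notochord-derived cells (NDCs) of the mouse at 12.5 days of gestation (E12.5) and on the day of birth (P0). The 9 genes were taken by name from the 43346 gene identifiers of the count data, and they were picked with their levels at the 2 stages already known, so the difference between stages is given for them as a description with no test. RNA was sequenced from 4 litters per stage, and each litter was pooled into 1 sample. All animals were Shh-cre;ROSA:YFP, a line in which Cre is driven by Shh and YFP marks cells that express Shh or descend from cells that did. The E12.5 samples (NDP10.2, NPD3, NPD4, NPD9.2) were notochords dissected whole and lysed without sorting. The P0 samples (NPD26, NPD27, NPD28, NPD30) were nucleus pulposus (NP) cells freed mechanically from lumbar and thoracic discs and sorted for YFP, so stage and isolation cannot be told apart.

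Osteoblasts form when the transcription factor Runx2 and, downstream of it, Sp7 (osterix) turn on bone genes, and Runx2 is also active in chondrocytes on their way to hypertrophy. The matrix they lay down holds type I collagen and acidic phosphoproteins that bind mineral and integrins, several of which are encoded side by side in the genome. Phex is a membrane endopeptidase of osteoblasts and osteocytes whose loss causes phosphate wasting, Ifitm5 is a membrane protein of mineralizing osteoblasts, and Bglap encodes osteocalcin, a late osteoblast product. The NP is not a mineralized tissue, and bone forms before birth in the vertebral bodies beside it.

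Between 4442775 and 7180221 reads per E12.5 litter and between 6371842 and 8904050 per P0 litter were counted on genes. Levels are given as CPM, counts scaled to library size by the TMM method, in which 3 counts, taken as the smallest readable signal, equalled 0.353 to 0.738 CPM. This floor and the intervals below cover counting error only. The notochord markers T, Krt8 and Krt19 were found in all 8 litters, with T at 242 to 942 CPM at E12.5 and 574 to 2323 CPM at P0. Shh stood at 420 to 1348 CPM at E12.5 and at 0.157 to 11.8 CPM at P0, and Noto, a defining gene of the early node and notochord, was at 0.433 CPM or below in every litter. Foxa1 stood at 70.0 to 239 CPM at E12.5 and at 18.6 to 52.3 CPM at P0. Of 10 listed notochord and NP markers, 3 were higher and 2 lower at P0 at an edgeR adjusted p under 0.05, with Shh and Foxa1 the lower ones.

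In 8 of the 9 genes every P0 litter lay above every E12.5 litter, a separation seen in 15.5% of the 15467 genes that passed the filter on low counts, and only Runx2 overlapped. The filter kept 7 of the 9, leaving out Mepe and Bglap. The reverse separation, with every P0 litter below every E12.5 litter, was seen in none of the 9 and in 14.4% of tested genes. These shares are on the contrast the genes were picked from, and nothing is read from them.

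Sp7 (ENSMUSG00000060284.6, GRCm38 chr15:102356606-102367182, minus strand), the factor that commits cells to the osteoblast, was counted at 1.89 CPM in NDP10.2, 1.95 in NPD3, 1.93 in NPD4 and 1.48 in NPD9.2 at E12.5, and litters keep this order below. Positions here and below are those of Gencode M21. At P0 Sp7 stood at 26.6 CPM in NPD26, 36.1 in NPD27, 33.8 in NPD28 and 49.4 in NPD30. All E12.5 litters were above the floor, and the lowest P0 litter was far above them. The E12.5 levels lay within a narrow band but rest on only 8, 10, 16 and 6 counts. The mean went from 1.81 ± 0.226 CPM (SD, n = 4) to 36.5 ± 9.54 CPM (SD, n = 4), a log2 fold change of 4.31 (SE 0.31).

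Runx2 (ENSMUSG00000039153.12, chr17:44495987-44814797, minus strand), the factor upstream of Sp7, stood at 56.9, 81.4, 25.0 and 45.5 CPM at E12.5. At P0 it stood at 23.4, 39.7, 43.7 and 50.8 CPM. The groups overlapped, with the lowest values of both stages almost alike and the highest value in the E12.5 litter NPD3. The means were 52.2 ± 23.5 and 39.4 ± 11.6 CPM (SD, n = 4 each), and the log2 fold change was -0.40 (SE 0.36). Runx2 shares 519 exon bases with the antisense gene Runx2os1, which had 0 to 7 counts per litter, and the strand setting of the counting is not given in the sources used here.

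The regulators therefore stood in a different proportion at each stage. Per length, the ratio of Sp7 to Runx2 within a litter was 0.0863, 0.0624, 0.201 and 0.0843 at E12.5. At P0 it was 2.95, 2.36, 2.01 and 2.53, so that Runx2 exceeded Sp7 in every E12.5 litter and Sp7 exceeded Runx2 in every P0 litter. The P0 ratios spanned a narrower relative range than Sp7 itself did.

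**Figure D1:**
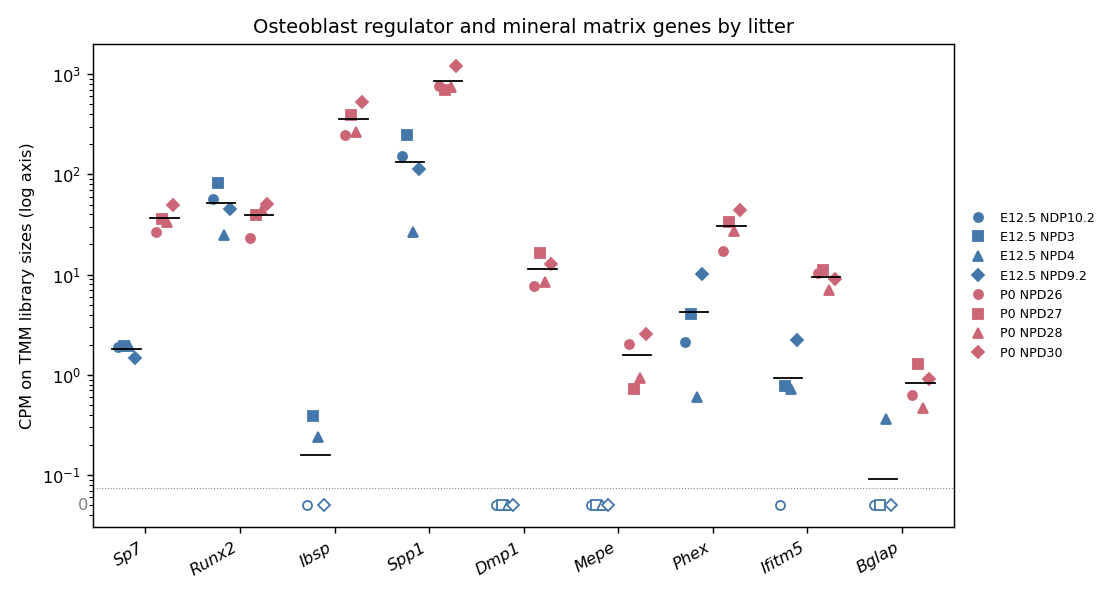
CPM on a log axis of each of the 9 genes in the 4 E12.5 litters (blue) and the 4 P0 litters (red), with bars at the means and open symbols below the dotted line for litters at 0. Runx2 is the gene whose stages overlap, Dmp1 and Mepe are at 0 in all E12.5 litters, and Ibsp has the widest gap among genes with any E12.5 count.

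Ibsp (ENSMUSG00000029306.8, chr5:104299171-104311469, plus strand) encodes bone sialoprotein, an acidic matrix protein that nucleates mineral. Its counts at E12.5 were 0, 2, 2 and 0, which is at or below the floor in every litter. At P0 they were 1561, 2697, 2226 and 3467 counts, or 245, 389, 262 and 526 CPM. Ibsp thus went from next to no reads to a mean of 356 ± 130 CPM (SD, n = 4). Over pooled litters the P0 level was 1902 times that at E12.5 (95% exact interval 743 to 6982). The fitted log2 fold change of 10.79 (SE 0.59) ranked 2 of the 15467 tested, and it depends on the prior count because of the low E12.5 reads. Ranked by level per length, Ibsp stood at position 147 of 42462 genes at P0.

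Spp1 (ENSMUSG00000029304.10, chr5:104435118-104441050, plus strand) encodes osteopontin, an integrin-binding phosphoprotein made by osteoblasts and also by osteoclasts, macrophages and hypertrophic chondrocytes. It was the only matrix protein of the 9 with a clear level at E12.5, where it stood at 154, 245, 26.4 and 113 CPM. At P0 it stood at 764, 692, 737 and 1207 CPM. The lowest P0 litter was well above the highest E12.5 litter, and the SD was 67.5% of the mean at E12.5 and 28.2% at P0. The mean went from 134 ± 90.8 to 850 ± 240 CPM (SD, n = 4 each), a log2 fold change of 2.66 (SE 0.56). In Gencode M21, 309 of its exon bases are shared with Gm42793 on the same strand, which was not analysed here.

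Dmp1 (ENSMUSG00000029307.6, chr5:104202613-104214102, plus strand), a matrix protein of osteocytes and late osteoblasts, had no count in any E12.5 litter. At P0 it stood at 7.71, 16.3, 8.36 and 12.9 CPM. The P0 mean of 11.3 ± 4.04 CPM (SD, n = 4) was 18.9 times the mean E12.5 floor of 0.598 CPM, set at 3 counts per library, which no E12.5 litter reached. Mepe (ENSMUSG00000053863.3, chr5:104325329-104338611, plus strand), an osteocyte matrix phosphoglycoprotein, had no count at E12.5 either. It had 13, 5, 8 and 17 counts at P0, or 2.04, 0.721, 0.942 and 2.58 CPM. All 4 P0 litters were thus above the floor, but with few reads, and the mean of 1.57 ± 0.886 CPM (SD, n = 4) was 2.63 times the same E12.5 floor.

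Dmp1, Ibsp, Mepe and Spp1 lie in this order within 270339 bp of chromosome 5, together with Dspp, which encodes a dentin protein of the same family. Dspp had no count in 7 of the 8 litters and 7 counts in the P0 litter NPD27. The nearest tested protein-coding gene on the Dspp side, Sparcl1, was higher at P0, at 92.3 to 346 CPM against 49.6 to 79.2 CPM (log2 fold change 1.60, SE 0.37, edgeR adjusted p = 0.00844). The nearest on the Spp1 side, Pkd2, did not pass the test (log2 fold change 0.05, SE 0.46, edgeR adjusted p = 0.952). The 4 members of the cluster that were above the floor at P0 differed widely in level, from 0.721 CPM for Mepe to 1207 CPM for Spp1. They also differed at E12.5, where only Spp1 was above the floor.

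Promoter sequence was read from RefSeq (GRCm38.p6) to show what lies before the starts of the 9 genes, among which Runx2 overlapped between stages. Windows were held for 8 of the 9 genes, Sp7 being the exception, and numbered 10. The letters ACCACA, or TGTGGT on the other strand, which form the core that Runx proteins bind, occurred within the 250 bases before the start in 14.0% of 32851 RefSeq windows of that length. They occurred in 5 of the 10 windows, those of Runx2, Spp1, Dmp1, Mepe and Bglap, with only 1 of the 2 windows of Dmp1 and of Spp1 holding them. The match of Runx2 lies within the Gencode gene body and is not printed. The windows of Ibsp, Phex and Ifitm5 held neither word. A match of 6 letters is a description and not a site. Only bases before the annotated gene are shown, 5′ to 3′ on the strand of the gene, with the matches in capitals.
Spp1, chr5:104434861-104435110, plus strand: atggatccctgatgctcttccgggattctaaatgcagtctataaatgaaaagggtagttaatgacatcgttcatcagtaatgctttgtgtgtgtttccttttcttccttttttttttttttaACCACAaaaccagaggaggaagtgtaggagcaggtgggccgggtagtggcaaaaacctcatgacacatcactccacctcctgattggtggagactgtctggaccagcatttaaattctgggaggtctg
Dmp1, chr5:104202367-104202612, plus strand: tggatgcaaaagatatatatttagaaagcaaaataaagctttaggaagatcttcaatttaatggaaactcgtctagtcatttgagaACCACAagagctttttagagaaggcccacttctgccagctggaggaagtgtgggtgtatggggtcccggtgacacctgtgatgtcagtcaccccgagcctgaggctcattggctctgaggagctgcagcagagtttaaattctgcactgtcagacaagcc
Mepe, chr5:104325079-104325328, plus strand: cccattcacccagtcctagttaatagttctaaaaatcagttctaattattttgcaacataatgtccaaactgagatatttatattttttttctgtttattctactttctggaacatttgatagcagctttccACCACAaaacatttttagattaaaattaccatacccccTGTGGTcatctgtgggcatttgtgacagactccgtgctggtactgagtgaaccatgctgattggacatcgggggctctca
Bglap, chr3:88384467-88384716, minus strand: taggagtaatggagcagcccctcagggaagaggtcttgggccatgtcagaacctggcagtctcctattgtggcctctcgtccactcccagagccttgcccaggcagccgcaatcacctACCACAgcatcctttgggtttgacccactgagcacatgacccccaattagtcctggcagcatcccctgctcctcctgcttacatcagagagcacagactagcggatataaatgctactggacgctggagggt

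The first base of the match lay 128 bases before the start in Spp1, 164 in Dmp1 and 132 in Bglap. Mepe held a forward match 118 bases before the start and a reverse match 80 bases before it. Of these 4 genes, Spp1 alone was above the floor in every E12.5 litter. Runx2, whose match is not printed, stood at 25.0 to 81.4 CPM at E12.5. A role of the matches was not tested.

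Phex (ENSMUSG00000057457.7, chrX:157162075-157415312, minus strand) stood at 2.12, 4.10, 0.604 and 10.1 CPM at E12.5. At P0 it stood at 17.1, 33.7, 27.1 and 43.7 CPM. The stages did not overlap, and the highest E12.5 litter, NPD9.2, lay nearest to the lowest P0 litter, NPD26. The mean went from 4.23 ± 4.16 to 30.4 ± 11.2 CPM (SD, n = 4 each), a log2 fold change of 2.89 (SE 0.68), which ranged from 2.48 to 3.74 when single litters were left out, the highest being without NPD9.2.

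Ifitm5 (ENSMUSG00000025489.4, chr7:140948958-140950291, minus strand) had 0, 4, 6 and 9 counts at E12.5. At P0 it had 66, 77, 60 and 60 counts, or 10.4, 11.1, 7.06 and 9.10 CPM. Its P0 litters were the most alike of the 9 genes, with an SD of 18.8% of the mean. In Gencode M21, 227 of its 765 exon bases are shared with Gm45717 on the same strand, which was not analysed here. The mean went from 0.930 ± 0.927 to 9.41 ± 1.77 CPM (SD, n = 4 each), and over pooled litters the ratio was 10.6 (95% exact interval 6.64 to 17.9). The log2 fold change of 3.35 (SE 0.68) ranged from 2.93 to 4.05 when single litters were left out, the highest being without NPD9.2, which held 9 of the 19 counts at E12.5.

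Bglap (ENSMUSG00000074483.2, chr3:88383501-88384464, minus strand) had 0, 0, 3 and 0 counts at E12.5 and 4, 9, 4 and 6 counts at P0. In CPM the P0 litters stood at 0.629, 1.30, 0.471 and 0.910, just above the floor. Over pooled litters the P0 level was 5.86 times that at E12.5 (95% exact interval 1.77 to 30.5). Of the 519 stretches of 100 bases, the length of a read, in Bglap transcripts of Gencode M21, 38.7% also occur in the neighbouring copies Bglap2 and Bglap3, and reads that align to several places were tallied apart from the genes, so the level of Bglap is uncertain. Bglap2 had 0 counts at E12.5 and 1 to 5 counts at P0, and Bglap3 had 12 counts in the P0 litter NPD27 and at most 1 in the other P0 litters.

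Levels between genes were compared per length, as TPM computed from the counts and the summed length of the merged Gencode M21 exons. At P0 the order was Spp1 at 976 TPM, Ibsp at 327 TPM, Ifitm5 at 23.2 TPM, Sp7 at 20.3 TPM, Phex at 9.2 TPM, Runx2 at 8.44 TPM, Dmp1 at 7.79 TPM, Bglap at 2.55 TPM and Mepe at 1.77 TPM. Spp1 and Ibsp stood apart from each other and from all others in every litter, whereas Ifitm5 overlapped Sp7, Phex overlapped Runx2, Runx2 overlapped Dmp1 and Bglap overlapped Mepe. At E12.5 the order was Spp1 at 126 TPM and Runx2 at 9.28 TPM, followed by Ifitm5 at 1.87 TPM, Phex at 0.944 TPM, Sp7 at 0.878 TPM, Bglap at 0.323 TPM and Ibsp at 0.149 TPM. Spp1 and Runx2 were apart from each other and from the rest in every E12.5 litter, and all neighbours below them overlapped. Scaled by the longest transcript instead, Runx2 stood above Phex at P0, at 10.3 against 8.21 TPM, and Sp7 just above Phex at E12.5, at 0.882 against 0.878 TPM. Within P0 litters Spp1 exceeded Ibsp by 3.90, 2.23, 3.53 and 2.88 times.

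**Figure D2:**
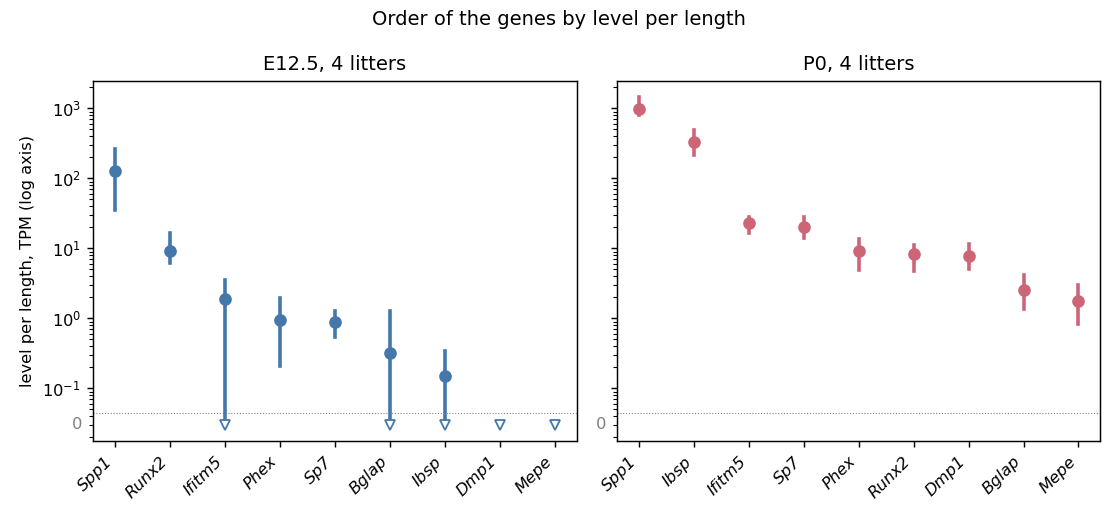
Level per length in TPM on a log axis at E12.5 (left) and P0 (right), with points at the mean of 4 litters and lines from the lowest to the highest litter, genes ordered by mean, and triangles where a litter was at 0. Runx2 is the second at E12.5 and the sixth at P0 with almost the same level, while Ibsp moves from the seventh place to the second.

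Sp7, Ibsp and Phex shared the same full order of the P0 litters, Spp1 and Mepe shared another, and each of the other genes had its own. NPD30 had the highest CPM in 6 of the 9 (Sp7, Runx2, Ibsp, Spp1, Mepe and Phex) and lay above the mean of the other P0 litters in 8 of the 9, with Ifitm5 the exception. NPD26 had the lowest in 5 of the 9. How often these litters were highest or lowest among all tested genes was not determined, so nothing is read from these counts. The ratio of highest to lowest P0 litter ran from 1.57 in Ifitm5 to 3.57 in Mepe. At E12.5 the litter NPD4 was lowest in Runx2, Spp1 and Phex, and NPD3 was highest in Runx2 and Spp1.

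Markers of other cell types moved with stage as well. Of 5 hypertrophic chondrocyte markers, 3 were called higher at P0 and the summed list stood at 22.5 to 61.3 CPM at E12.5 and at 201 to 327 CPM at P0. Mmp13, a collagenase of hypertrophic chondrocytes and osteoblasts, stood at 0.236 CPM or below at E12.5 and at 144, 197, 102 and 151 CPM at P0. Col10a1 stood at 1.57 to 3.77 CPM at E12.5 and at 16.8 to 31.4 CPM at P0. Panx3 stood at 0.484 CPM or below at E12.5 and at 14.1 to 19.3 CPM at P0. Both were called higher (edgeR adjusted p = 0.000322 and 0.000162), and Pth1r was not called (edgeR adjusted p = 0.126). Ihh, which defines prehypertrophic chondrocytes, was at or below 0.865 CPM in every P0 litter and was not tested. The part of such cells in the levels of Sp7, Spp1 and the other genes was not tested. In a bulk sample, fewer cells of a type and less RNA per cell cannot be told apart.

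Osteoclast markers summed to 17.4 to 29.5 CPM at E12.5 and to 397, 316, 157 and 125 CPM at P0, and the 2 of 7 that were tested were both called higher. Macrophage markers summed to 59.1 to 116 CPM at E12.5 and to 4665, 5192, 1678 and 61.4 CPM at P0. All 7 macrophage markers, all 6 neutrophil markers and all 6 leukocyte markers were called higher at P0. NPD27, with the highest macrophage sum, had the second-highest Ibsp, and NPD26, with the highest osteoclast sum, the second-highest Spp1. In NPD30, which had the highest Ibsp and Spp1, the macrophage sum was within the E12.5 range, the osteoclast genes Ocstamp and Dcstamp were at 0 and Acp5 stood at 19.6 CPM against 6.24 to 21.1 CPM at E12.5, while Ctsk stood at 103 CPM against 5.66 to 15.6 CPM. With NPD30 as the only P0 litter the log2 fold change was 4.78 (SE 0.45) for Sp7, 11.36 (SE 0.54) for Ibsp, 3.22 (SE 0.86) for Spp1, 3.47 (SE 0.94) for Phex and 3.33 (SE 1.11) for Ifitm5, and that of Runx2 was 0.01 (SE 0.53). In this fit the lone P0 litter was assumed to vary like the E12.5 litters. NPD30 was chosen after seeing the data and had the highest P0 level of Sp7, Runx2, Ibsp, Spp1 and Phex. Larger fold changes for these genes were therefore set by the choice, and nothing is read from them. NPD30 also had the highest P0 sums of hypertrophic chondrocyte (327 CPM), cartilage (7958 CPM), tendon and annulus (1456 CPM) and notochord and NP markers (31824 CPM). Its leukocyte sum of 252 CPM was the lowest at P0 and above the 41.4 to 91.0 CPM at E12.5. The part of osteoclasts, macrophages and these other cells was not tested. Neutrophil markers stayed at 680 to 6654 CPM in all P0 litters against 4.01 to 14.0 CPM at E12.5, and their part was not tested.

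Erythroid markers summed to 9714 to 46751 CPM in the E12.5 litters and to 330 to 1076 CPM in the P0 litters, with 5 of 7 called lower. With hemoglobin and mitochondrial genes left out together, the log2 fold change of Sp7 was 4.28 (SE 0.32) and that of Ibsp 10.76 (SE 0.60).

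**Figure D3:**
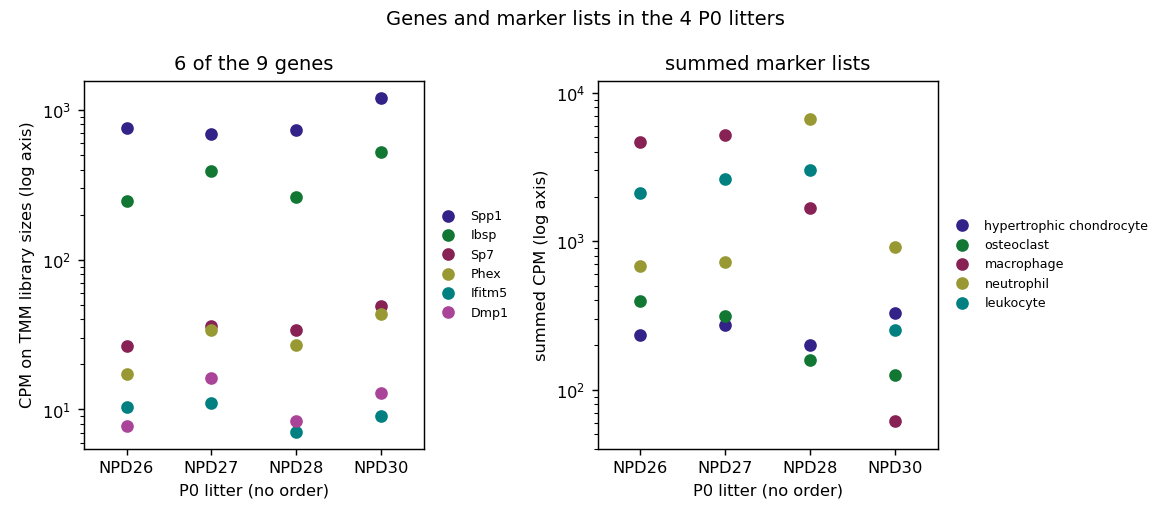
CPM of 6 of the 9 genes (left) and summed CPM of 5 marker lists (right) in the P0 litters, both on log axes, with 1 point per gene or list and litter. In NPD30 Spp1, Ibsp, Sp7 and Phex are at their highest. The macrophage list is at 61.4 CPM there, the osteoclast list at its lowest, 125 CPM, and the hypertrophic chondrocyte list at its highest, 327 CPM.

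Other genes of bone and mineral were read from 4 lists of 38 genes in all, drawn up with earlier results of these data known. Of the 30 that were tested, 11 were called higher and 3 lower at P0, beside 16.0% and 12.0% of all tested genes (27.9% in either direction). With upper quartile scaling the listed calls also numbered 11 and 3, while 2105 of all tested genes were called higher and 2322 lower, against 2468 and 1853. The median log2 fold change of the 30 was 0.62 and that of all tested genes 0.04. Calls fell on 5 of 11 tested regulators, 5 of 7 bone matrix genes, 2 of 4 osteocyte and phosphate genes and 2 of 8 modifying enzymes and receptors, and no difference between the lists was tested.

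Among 12 regulators, 11 were tested, 2 were called higher and 3 lower, with a median log2 fold change of 0.30. Dlx5, a homeobox activator of Runx2 and Sp7, rose from 0.708 to 1.97 CPM at E12.5 to 11.5, 16.7, 14.5 and 52.5 CPM at P0 (log2 fold change 3.91, SE 0.58, edgeR adjusted p = 0.000959). Runx1 rose as well (log2 fold change 1.08, SE 0.28, edgeR adjusted p = 0.0145). It stood at 40.1 to 78.8 CPM at E12.5 and at 114, 149, 149 and 97.2 CPM at P0. The lowest of these P0 values was in NPD30, the P0 litter with the lowest leukocyte sum, and the part of leukocytes was not tested. Twist1 and Twist2, basic helix-loop-helix proteins that hold back Runx2 activity, both fell. Twist1 went from 33.2 to 55.4 CPM to 6.95 to 11.8 CPM (log2 fold change -2.19, SE 0.29, edgeR adjusted p = 0.00056), and Twist2 from 6.77 to 18.2 CPM to 0.157 to 1.59 CPM (log2 fold change -4.27, SE 0.66, edgeR adjusted p = 0.00111). The 5 sclerotome markers were all called lower as well, with sums of 119 to 160 CPM at E12.5 and 6.00 to 17.4 CPM at P0, and the part of such cells in the levels of Twist1, Twist2 and Msx2 was not tested. Cbfb, the partner subunit of all Runx proteins, stood at 66.8 to 171 CPM at E12.5 and 106 to 131 CPM at P0. It was not called (edgeR adjusted p = 0.879). Msx2 was called lower (log2 fold change -3.53, SE 1.12, edgeR adjusted p = 0.0394), a call that held in 3 of the 8 fits that left out a litter and was lost with limma-voom (adjusted p = 0.0658) and with no filter (edgeR adjusted p = 0.0716). Runx1 was no longer called without the E12.5 litter NPD9.2 (edgeR adjusted p = 0.055).

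Of 11 bone matrix genes, 7 were tested and 5 were called higher, with a median log2 fold change of 2.51. Col1a1, the main chain of bone collagen and of many other connective tissues, rose from 235 to 1272 CPM to 2845, 6890, 6643 and 11487 CPM (log2 fold change 3.21, SE 0.64, edgeR adjusted p = 0.00402). Alpl, the phosphatase that clears the mineralization inhibitor pyrophosphate, rose from 0.390 to 3.07 CPM to 20.4, 31.0, 38.1 and 31.1 CPM (log2 fold change 4.31, SE 0.52, edgeR adjusted p = 0.000352). Col1a2, Mgp, an inhibitor of mineralization, and Smpd3 were the others, with log2 fold changes of 2.51, 1.51 and 1.88, and Smpd3, a sphingomyelinase that acts in matrix mineralization, was no longer called without the E12.5 litters NDP10.2 (edgeR adjusted p = 0.068) or NPD9.2 (0.066). Sparc, a collagen-binding glycoprotein abundant in bone, was high at both stages and was not called (log2 fold change 0.58, SE 0.39, edgeR adjusted p = 0.293). Omd, which encodes osteomodulin, was not called either (log2 fold change 2.55, SE 0.95, edgeR adjusted p = 0.0676), but it was with DESeq2 (adjusted p = 0.0246). Per length, Ibsp stood at 27.4%, 17.9%, 12.5% and 14.5% of the level of Col1a1 in the P0 litters and at 0.34% or below at E12.5. Markers of tendon and annulus, tissues rich in type I collagen, summed to 74.2 to 275 CPM at E12.5 and 420 to 1456 CPM at P0, with Fmod alone called higher, at 51.4 to 256 CPM and 403 to 1415 CPM, and Scx called lower. The mean log2 difference over this list was 0.16, and the part of such cells was not tested.

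Of 7 genes of osteocytes and of phosphate handling, 4 were tested and 2 were called higher, with a median log2 fold change of 1.09. Ank, a pyrophosphate transporter, had a log2 fold change of 1.53 (SE 0.28, edgeR adjusted p = 0.00289), and Galnt3, which protects the phosphate hormone Fgf23 from cleavage, one of 2.05 (SE 0.55, edgeR adjusted p = 0.0196, and 0.0623 without the E12.5 litter NPD9.2). The osteocyte products Sost and Fgf23 had few counts and were not tested. Sost had 0 to 1 counts at E12.5 and 2, 12, 13 and 3 at P0, with every P0 litter above every E12.5 litter, and Fgf23 had 0 to 8 at E12.5 and 2, 20, 1 and 2 at P0, with overlap. Of 8 modifying enzymes and receptors, all tested, Itgb5 and Cd44 were called higher, with log2 fold changes of 1.58 (SE 0.31) and 3.79 (SE 0.37), and the median was 0.06. Cd44, a receptor of osteopontin and hyaluronan that leukocytes also carry, was highest in NPD28, at 574 CPM, the litter with the highest neutrophil sum. Fam20c, the kinase that phosphorylates the acidic matrix proteins, stood at 46.0 ± 14.0 and 39.0 ± 11.1 CPM (SD, n = 4 each), and it was not called, nor were Ggcx and Vkorc1, which serve the carboxylation of osteocalcin.

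**Figure D4:**
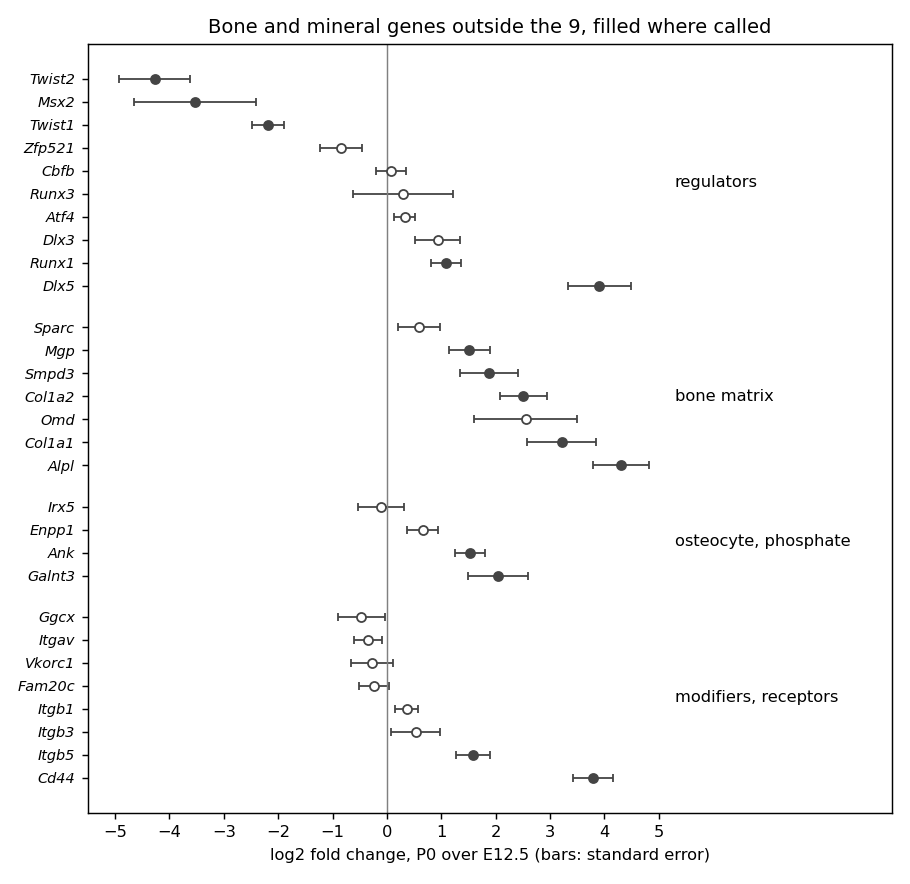
Log2 fold change of P0 over E12.5 with its standard error for tested genes of 4 bone and mineral lists, all but 1 shown, filled where the adjusted p was under 0.05. Bone matrix genes lie on the right of 0, Twist1, Twist2 and Msx2 lie on the left, and most modifying enzymes and receptors sit near 0.

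The genes outside all lists whose log2 CPM was most like that of Sp7 over the 8 samples, among 12554 compared, were Prkca (r = 0.989), Acpp (r = 0.989), Grik1 (r = 0.985), Cdkn2c (r = 0.984) and Fgf1 (r = 0.984). For Ibsp they were Acpp (r = 0.988), Zbtb8b (r = 0.987), Frmd4b (r = 0.987), Grik1 (r = 0.985) and Ankrd40 (r = 0.985). These values mostly describe the gap between stages, which all these samples share. With the stage means taken away, the genes most like Sp7 were Syt14 (r = 0.992), Mamld1 (r = 0.981), Fam168a (r = 0.979), Zfp30 (r = 0.964) and Pabpc4l (r = 0.956). Those most like Ibsp were Lca5 (r = 0.981), Vps37a (r = 0.979), Zfp260 (r = 0.957), Msantd2 (r = 0.946) and Mut (r = 0.934), and no gene was on both of these lists.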

How the data were processed

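RNA-Seq libraries were made with the TotalScript Kit and sequenced as single 100-base reads. The authors mapped them to GRCm38.p3 with STAR 2.4.0j and deposited, for each litter, the htseq-count tally of Gencode M4 genes, which are raw counts with no scaling. The processing notes also name mm9, with no role given. Counts were tested here in R 4.3.3 with edgeR 4.0.16 (TMM, filterByExpr with a minimum count of 10, robust quasi-likelihood F-test, Benjamini-Hochberg adjustment over 15467 genes), without covariates. The study used DESeq2, which was run as an alternative in version 1.42.0, as was limma-voom 3.58.1. The p-values set the difference between stages, which includes that of isolation, against the spread between litters. TPM used Gencode M21 exon lengths, and 42462 identifiers matched a symbol there. Ratios over pooled litters have exact binomial intervals.

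The 9 genes and all lists were chosen with earlier results of these data known. Named genes were the 9, the 38 listed bone and mineral genes, the 5 genes outside the lists with the highest Pearson r to Sp7 and to Ibsp (mean log2 CPM of at least 2, over levels and over deviations from the stage mean), and defining markers. Sparcl1, Pkd2 and Runx2os1 were named for their position. Alternatives were other tools, scalings, filters, a prior count of 2, downsampling and single litters left out. The values of 1 listed regulator are not reported here.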

Additional observations from a re-analysis of the deposited data

Results flagged for a closer look

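In a group of 4 litters a value was looked at again where its gap to the nearest litter as a share of the range exceeded Dixon's 95% critical value. Of 104 groups of gene levels and marker sums examined, 11 met this, and chance alone gives about 5% of groups. No explanation was weighed.

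Among the 9 genes, Spp1 in the P0 litter NPD30 stood at 1207 CPM, above 692 to 764 CPM in the other P0 litters, and Sp7 in the E12.5 litter NPD9.2 stood at 1.48 CPM, below 1.89 to 1.95 CPM in the others, a gap of few reads.

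Among the other bone and mineral genes, Dlx5 stood at 52.5 CPM in the P0 litter NPD30, against 11.5 to 16.7 CPM, and Runx3 at 44.0 CPM in the E12.5 litter NPD4, against 1.37 to 3.77 CPM. The P0 litter NPD27 stood apart in 4 scarce genes, at 2.45 CPM for Msx2, 1.73 CPM for Bglap3, 1.01 CPM for Dspp and 2.88 CPM for Fgf23. Bglap3 stood at 0.604 CPM in the E12.5 litter NPD4 and at 0 in the other E12.5 litters.

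Of the marker sums, neutrophil markers reached 6654 CPM in the P0 litter NPD28, against 680 to 921 CPM, and sclerotome markers were at 119 CPM in the E12.5 litter NPD4, against 159 to 160 CPM.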

How the results depend on the processing

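No paired analysis was possible because the litters of the stages share no number. No call among the 9 genes is made. Mepe and Bglap had no fitted fold change as reported, and with at least 10 counts in every sample only Runx2 and Spp1 had one. Among the 7 with fitted values, the direction in the alternatives that gave one was that reported, except for Runx2, which stood at 0.01 with NPD30 as the only P0 litter. The genes were picked on this contrast and the alternatives refit the same litters, so nothing is read from the shared direction. Over fits that left out single litters, genes called higher ranged from 2084 to 2586, genes called lower from 1512 to 1943, listed bone and mineral genes called higher from 8 to 13 and lower from 2 to 3. With at least 10 counts in every sample 1 listed gene was called lower, where Msx2 and Twist2 could not enter. With the P0 litters NPD26, NPD27 and NPD28 left out, a choice made after seeing the data, 632 genes were called higher, 422 lower and 1 listed gene lower. With the E12.5 litters NDP10.2 and NPD9.2 left out, also chosen after seeing the data, 1493 genes were called higher, 1088 lower and 7 listed genes higher. Fewer samples entered both fits. Upper quartile scaling moved the median of all genes by -0.15 on the log2 scale, and Runx2 to -0.55.

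None of the listed genes that changed sign was called in the main result. Cbfb moved to -0.076 with upper quartile scaling and to -0.28 without the 2 E12.5 litters, Runx3 to -0.54, Irx5 to 0.14 and Fam20c to 0.084 without the same litters, and Irx5 to 0.81, Ggcx to 0.22 and Vkorc1 to 0.031 with NPD30 alone. Without single litters Cbfb ranged from -0.15 to 0.35 (-0.0089 without NPD9.2), Runx3 from -0.11 to 2.76 (-0.031 without NDP10.2 and -0.080 without NPD9.2) and Irx5 from -0.62 to 0.12 (0.053 without NDP10.2). The cause was not tested. Calls lost in a fit without 1 litter were those of Msx2 (without NDP10.2, NPD9.2, NPD26, NPD28 or NPD30, edgeR adjusted p from 0.0672 to 0.0991, and lost too with limma-voom or no filter), Smpd3, Runx1 and Galnt3. With no filter the calls of Smpd3 (edgeR adjusted p = 0.0504) and Galnt3 (edgeR adjusted p = 0.0896) were lost too. Runx3 was called without NPD4, at 2.76 (edgeR adjusted p = 0.0019). Omd was called without NPD4 (edgeR adjusted p = 0.0448), with no filter (edgeR adjusted p = 0.0215) and with DESeq2 (adjusted p = 0.0246). Enpp1 was called without NPD3 (edgeR adjusted p = 0.0493). With DESeq2 13 listed genes were called higher and with limma-voom 12. Depth limits Mepe, Bglap and the E12.5 levels of Ibsp, Dmp1 and Ifitm5, which rest on 9 counts or fewer per litter. It also limits the E12.5 levels of Sp7, and so its ratios to Runx2, which rest on 6 to 16 counts of Sp7 per litter.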

Other observations

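The direction of the list of notochord and NP markers depended on how it was summarized. The ratio of mean sums of P0 to E12.5 was 1.88 on the log2 scale, carried by Car3 at 6250 to 24889 CPM at P0 against 695 to 2418 CPM at E12.5, whereas the mean difference in log2 CPM over the 10 genes was -0.33. Pdpn, an early osteocyte gene also made by other cells, was listed at 0 in all 8 litters.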
